A study of Sus scrofa with 4 samples.

Results

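Wnt proteins are secreted, lipid-modified signals that pass between neighbouring cells. They bind Frizzled receptors together with a co-receptor: LRP5 or LRP6 in the branch that stabilises beta-catenin, and ROR1, ROR2 or RYK in branches that act on cell polarity and movement. Secreted antagonists limit the signal, either by binding the ligand (the SFRP proteins, FRZB and WIF1) or by occupying LRP5 and LRP6 (the Dickkopf proteins DKK1, DKK2 and DKK4). In lung, Wnt signalling between mesenchyme and epithelium takes part in branching, in alveolar maintenance and in repair. LGR5, a receptor for R-spondins, amplifies this signal and is itself a Wnt target gene in many tissues.

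The 47 genes described here encode the Wnt ligands (18), the proteins that acylate and export them (2), the Frizzled receptors (10), the other receptors LRP5, LRP6, ROR1, ROR2 and RYK (5), the Dickkopf co-receptors KREMEN1 and KREMEN2 (2) and the secreted antagonists (10). They were picked by gene symbol alone, from 29263 genes in the count tables. All rows of the count tables that carried a symbol of these families were taken, and no row was named WNT4 (0 rows). Expression was measured by RNA sequencing in lung cells of pigs with an LGR5-H2B-GFP knock-in, a reporter in which green fluorescent protein fused to a histone marks cells that transcribe LGR5. Both groups carry this genotype. Sorting gave brightly fluorescent cells (GFP-HI) and cells lacking fluorescence (GFP-NEG), with 2 biological replicates of each. The labels describe digestion of adult and fetal lung together and give no age for these libraries, and only the name of the authors' comparison table speaks of adult pig. A histone-bound reporter can outlast the transcript of its gene, so GFP-HI can include cells that have stopped transcribing LGR5.

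Total counts of replicates 1 and 2 were 24200550 and 24689986 for GFP-HI against 6292253 and 7045652 for GFP-NEG, so GFP-HI was 3.67 times as deep on average. Even so, more genes had a count in GFP-NEG (24120 and 25985) than in GFP-HI (18752 and 18392). Levels below are CPM, a gene's counts relative to its TMM-scaled library total, and 1 count was worth between 0.0453 and 0.155 CPM. LGR5 stood at 146 and 152 CPM in GFP-HI and at 1.55 and 0.767 CPM in GFP-NEG, so the sort matched its labels. The summed level of 14 fibroblast markers was 97480 and 91890 CPM in GFP-HI and 31390 and 10350 CPM in GFP-NEG. GFP-NEG replicate 1 thus had 3.03 times the fibroblast marker level of GFP-NEG replicate 2. Sums of 16 immune markers were 430 and 669 CPM in GFP-HI and 2712 and 3233 CPM in GFP-NEG, and sums of 10 endothelial markers were 225 and 222 CPM against 1479 and 607 CPM. The 13 epithelial markers summed to 387 and 376 CPM in GFP-HI and 876 and 261 CPM in GFP-NEG, and the 10 smooth muscle and pericyte markers to 1669 and 2413 CPM against 2584 and 384 CPM. No marker of these 5 lists was at 0 counts in any library. In such bulk samples, fewer cells of a type and less RNA per cell cannot be told apart, and the part that this mixture plays in the differences below was not tested.

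Of the 47 genes, 42 passed the filter on low counts and were tested. By edgeR's quasi-likelihood test at an adjusted p-value under 0.05, 13 were higher and 9 lower in GFP-HI, and 20 did not pass. That is 31.0% higher and 21.4% lower, where over all 19682 tested genes 8.35% were called higher and 27.6% lower. The median log2 fold change (GFP-HI minus GFP-NEG) was 0.84 over the 42 genes and -0.25 over all tested genes. Both GFP-HI libraries lay above both GFP-NEG libraries for 21 of the 42 (50.0%, against 27.7% of all tested genes) and below them for 17 (40.5%, against 42%). Of the 42 genes, 8 ligand, Frizzled and antagonist genes reached the filter through GFP-NEG only. These genes had to be lower in GFP-HI to be tested at all, so the counts of lower genes are descriptions of the tested genes and nothing more. The plot of levels by library shows the 13 called-higher genes spread over ligands, Frizzled receptors, other receptors and antagonists.

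**Figure D1:**
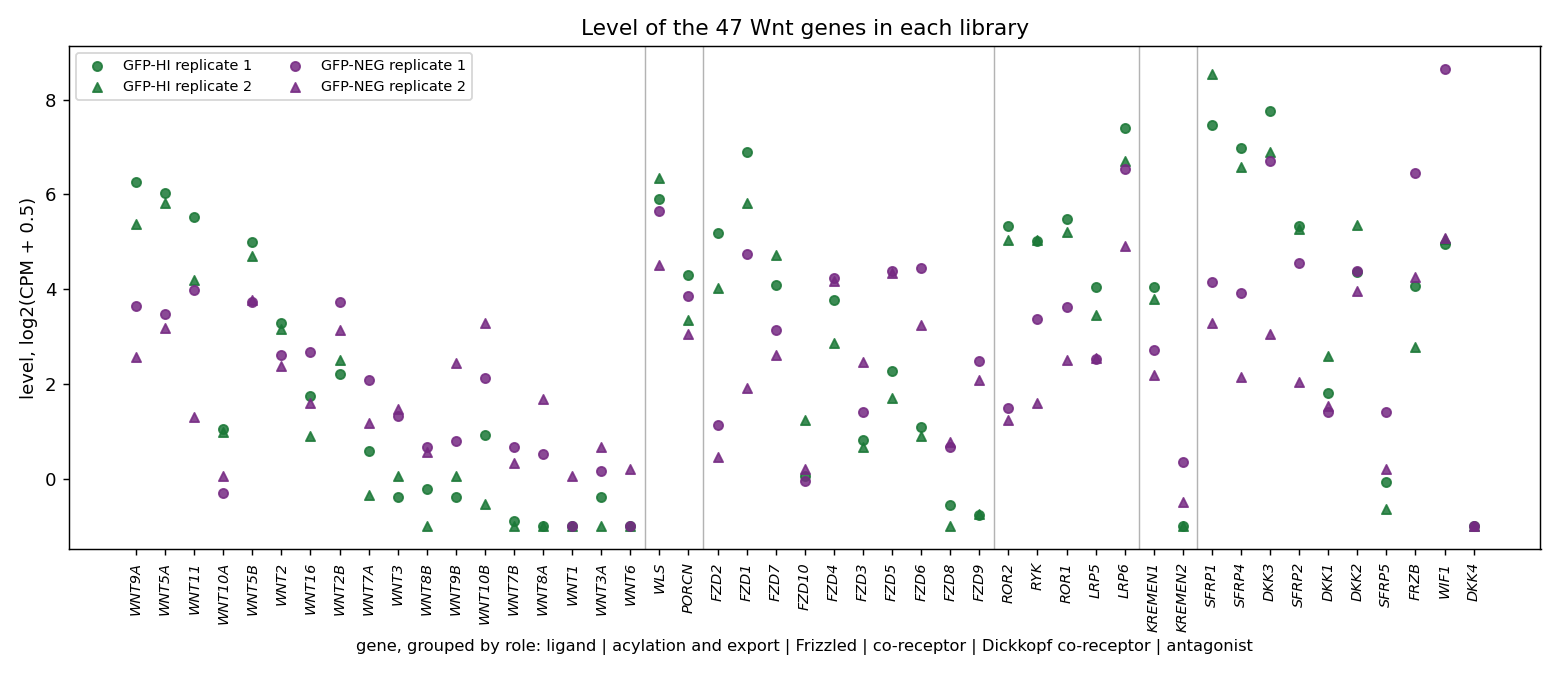
Level of each of the 47 Wnt genes, as log2(CPM + 0.5), in GFP-HI (green) and GFP-NEG (violet), with circles for replicate 1 and triangles for replicate 2, and with genes grouped by role and ordered by fold change. The 3 ligands WNT9A, WNT5A and WNT11 lie higher in both GFP-HI libraries, and WIF1 stands apart in GFP-NEG replicate 1 at 400 CPM. Levels of different genes are not corrected for transcript length.

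Among the ligands, WNT5A, WNT9A and WNT11 were higher in the LGR5-reporter-bright cells. WNT5A, the best-known ligand of the ROR receptors and a factor of mesenchymal cells in developing lung, was at 64.8 and 55.8 CPM in GFP-HI and at 10.7 and 8.55 CPM in GFP-NEG. Its lowest GFP-HI value lay well above both GFP-NEG values, and the replicates of each group were close to each other. The fold change was 6.27 (log2 2.65, standard error 0.55, adjusted p = 3.6e-05, edgeR).

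WNT9A, a ligand known from joint formation, was at 75.9 and 41.3 CPM in GFP-HI and at 12.1 and 5.48 CPM in GFP-NEG. Both groups varied between replicates by about the same factor, and they did not overlap. The fold change was 6.70 (log2 2.74, standard error 0.56, adjusted p = 2.1e-05, edgeR). Differences within replicates 1 and 2, on the log2(CPM + 0.5) scale, were 2.54 and 2.64 for WNT5A and 2.60 and 2.80 for WNT9A. These genes gave nearly the same difference in both replicates, and both were called under all 11 alternative settings.

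WNT11, which acts mainly outside the beta-catenin branch, was at 45.6 and 17.8 CPM in GFP-HI and at 15.4 and 1.97 CPM in GFP-NEG. The lower GFP-HI library was only slightly above the higher GFP-NEG library. Its log2 fold change was 1.89 (standard error 0.58, adjusted p = 0.0046, edgeR), and it was 1.14 without GFP-HI replicate 1 (adjusted p = 0.33) and 1.01 without GFP-NEG replicate 2 (adjusted p = 0.54). DESeq2 did not call it either (adjusted p = 0.072). WNT11 was therefore separated in direction in all 4 libraries, with a size that depended on single libraries: it was 4.05 without GFP-NEG replicate 1.

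WNT10B, WNT7B and WNT8A were the ligands lower in GFP-HI, all at low levels, and WNT7B and WNT8A reached the filter through GFP-NEG only. WNT10B, a ligand of the beta-catenin branch, was at 1.40 and 0.198 CPM in GFP-HI and at 3.88 and 9.21 CPM in GFP-NEG. The log2 fold change was -3.01 (standard error 1.08, adjusted p = 0.017, edgeR), and the call was lost without GFP-HI replicate 2 (-2.10, adjusted p = 0.18) and without GFP-NEG replicate 2 (-2.30, adjusted p = 0.34). GFP-NEG replicate 2 was its highest library and GFP-HI replicate 2 its lowest.

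WNT7B, an epithelial ligand of developing lung, was counted 1 and 0 times in the GFP-HI libraries and 7 times in each GFP-NEG library. The ratio of pooled CPM was 38.0 (GFP-NEG over GFP-HI), with an exact 95% interval of 5.78 to 1610 that covers counting error only. It passed the threshold (adjusted p = 0.0048, edgeR), but not with the replicate block, with no filter on low counts or with DESeq2, where adjusted p reached 0.12, and no fit that left out a library tested it. WNT8A was not counted in either GFP-HI library (0 counts) and had 6 and 25 counts in the GFP-NEG libraries. The lower GFP-NEG library was set against a floor of 3 counts in a GFP-HI library, with its own 6 counts taken as exact. By this measure, which is no lower bound, WNT8A was 6.26-fold lower in GFP-HI (adjusted p = 1.9e-04, edgeR). Its call was lost without either GFP-HI library (adjusted p = 0.071 and 0.074). It was not tested without GFP-NEG replicate 2, under the stricter filter or after thinning GFP-HI.

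The other 9 tested ligands did not pass. WNT5B, the close relative of WNT5A, was at 31.3 and 25.5 CPM in GFP-HI and at 12.7 and 13.3 CPM in GFP-NEG, with groups that did not overlap and a log2 fold change of 1.13 (adjusted p = 0.11, edgeR). WNT10A was at 1.59 and 1.49 CPM against 0.310 and 0.548 CPM (log2 1.79, adjusted p = 0.29). WNT2, a ligand of lung mesenchyme, was at 9.24 and 8.43 CPM against 5.59 and 4.71 CPM, a difference of 0.78 on the log2 scale (adjusted p = 0.46), while its relative WNT2B was at 4.12 and 5.21 CPM against 12.7 and 8.33 CPM (-1.17, adjusted p = 0.23). So the paired relatives WNT2 and WNT2B had fold changes of opposite sign, neither past the threshold, and their difference was not tested.

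The ligands WNT3, WNT7A, WNT8B, WNT9B and WNT16 (5 genes), all with low counts, had log2 fold changes between -2.91 (WNT9B) and -0.98 (WNT16), with adjusted p-values between 0.065 and 0.51 (edgeR). WNT3, WNT8B and WNT9B reached the filter through GFP-NEG only, so they could be tested only by being lower in GFP-HI. With that limit, WNT3 was called once GFP-HI was thinned to the depth of GFP-NEG (adjusted p = 0.040). WNT9B was called under the stricter filter (adjusted p = 0.050, just under the threshold). WNT1, WNT3A and WNT6 were too low to be tested. WNT1 and WNT6 had counts in GFP-NEG replicate 2 alone, 5 and 6. WNT3A was counted 6 and 0 times in the GFP-HI libraries and 4 and 10 times in the GFP-NEG libraries.

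Neither gene of ligand acylation and export passed the threshold. PORCN, the enzyme that attaches the lipid to Wnt proteins, was at 19.4 and 9.77 CPM in GFP-HI and at 13.97 and 7.78 CPM in GFP-NEG, so that the groups overlapped (log2 0.42, standard error 0.62, adjusted p = 0.64, edgeR). WLS, the carrier that brings Wnt proteins to the cell surface, was at 59.1 and 81.2 CPM in GFP-HI and at 49.8 and 22.3 CPM in GFP-NEG (log2 0.96, standard error 0.52, adjusted p = 0.14). WLS did not overlap between the groups, but GFP-NEG replicate 1 came near the lower GFP-HI library.

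**Figure D2:**
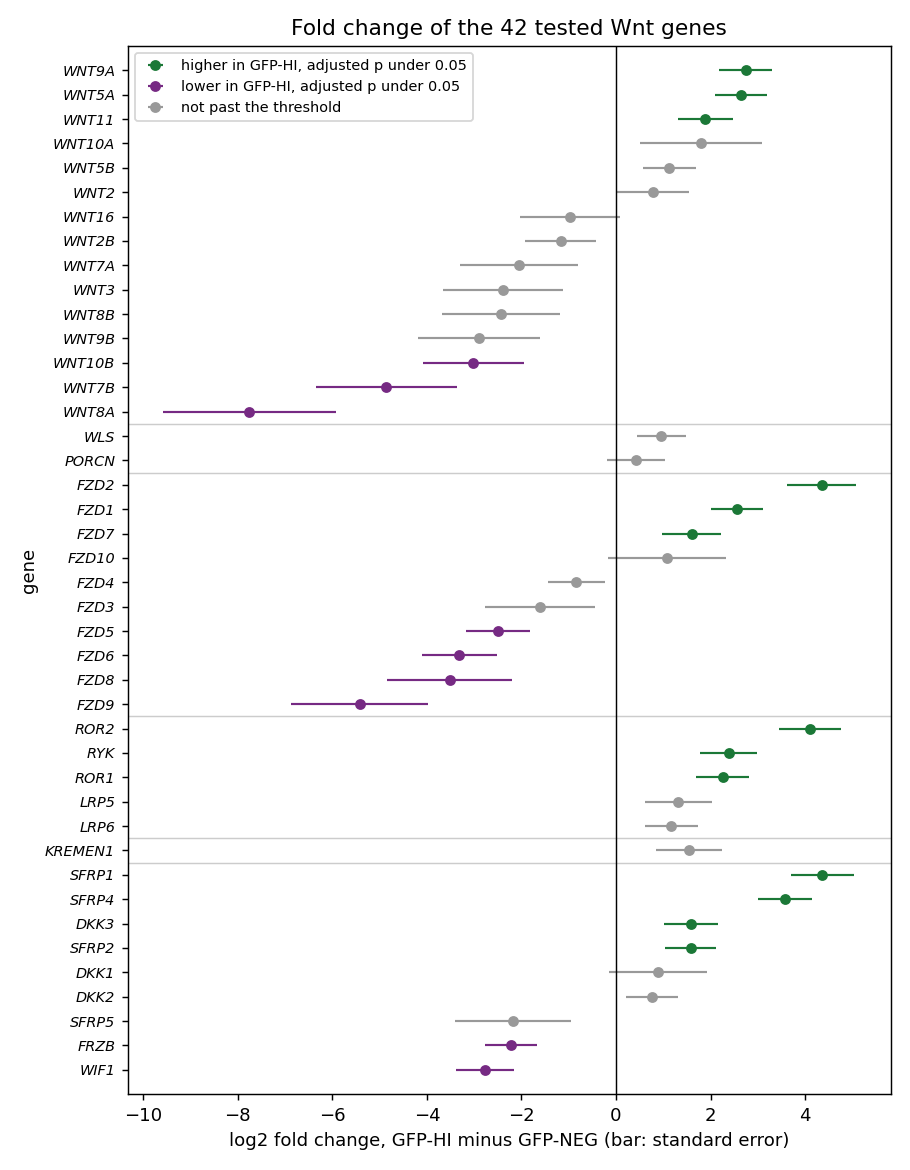
Log2 fold change (GFP-HI minus GFP-NEG) with its standard error for the 42 tested Wnt genes, grouped by role, with green for called higher, violet for called lower and grey for genes not past the threshold. Within the Frizzled receptors the values run from 4.35 (FZD2) to -5.42 (FZD9), and none of the 5 receptors LRP5, LRP6, ROR1, ROR2 and RYK is below 0. The fitted value of WNT8A, with 0 counts in GFP-HI, depends on the prior count and is no measure of size.

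Of the 10 Frizzled receptors, FZD1, FZD2 and FZD7 were called higher in GFP-HI and FZD5, FZD6, FZD8 and FZD9 lower (3 and 4, where 8.35% of all tested genes were higher and 27.6% lower). FZD8 and FZD9 reached the filter through GFP-NEG only, so they could be tested only by being lower in GFP-HI. FZD2, a receptor for WNT5A, was at 36.0 and 15.9 CPM in GFP-HI and at 1.71 and 0.877 CPM in GFP-NEG, where it rested on 11 and 8 counts. Its lower GFP-HI library was far above both GFP-NEG libraries. The fold change was 20.4 (log2 4.35, standard error 0.73, adjusted p = 1.5e-07, edgeR), and FZD2 was called under all 11 alternatives.

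FZD1, a receptor of the beta-catenin branch, was at 118 and 56.2 CPM in GFP-HI and at 26.4 and 3.29 CPM in GFP-NEG. GFP-NEG varied between replicates more than GFP-HI, and the groups did not overlap. The log2 fold change was 2.57 (standard error 0.55, adjusted p = 5.3e-05, edgeR). It was 4.78 without GFP-NEG replicate 1, and the call was lost without GFP-NEG replicate 2 (1.69, adjusted p = 0.19) and without GFP-HI replicate 1 (2.02, adjusted p = 0.069).

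FZD7, the close relative of FZD1 and FZD2, was at 16.5 and 25.8 CPM against 8.38 and 5.59 CPM. Its log2 fold change of 1.60 (standard error 0.62, adjusted p = 0.030, edgeR) passed by a small margin. The call was lost with scaling by library totals alone (1.18, adjusted p = 0.17), after thinning (adjusted p = 0.069), and without GFP-NEG replicate 1 (adjusted p = 0.052), GFP-HI replicate 2 (0.19) or GFP-NEG replicate 2 (0.39).

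FZD5, a receptor of the beta-catenin branch, was at 4.35 and 2.78 CPM in GFP-HI and at 20.5 and 19.8 CPM in GFP-NEG. The GFP-NEG libraries were almost equal here, unlike for FZD1. It fell by 2.50 on the log2 scale (standard error 0.67, adjusted p = 9.6e-04, edgeR), and the adjusted p was 0.054 without GFP-HI replicate 2. FZD6, which acts in planar polarity and hair patterning, was at 1.63 and 1.39 CPM against 21.3 and 8.99 CPM (-3.31, standard error 0.79, adjusted p = 2.1e-04), with an adjusted p of 0.051 without GFP-NEG replicate 1.

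FZD9 was counted 2 times in each GFP-HI library and 33 and 34 times in the GFP-NEG libraries. The ratio of pooled CPM was 45.5 (GFP-NEG over GFP-HI, exact 95% interval 17.0 to 172, counting error only), and the adjusted p was 9.3e-04 (edgeR). FZD8 had 4 and 0 counts against 7 and 11, a ratio of 12.2 (4.02 to 49.6), with an adjusted p of 0.025. Its call was lost under 6 of 9 alternatives that tested it, among them the replicate block (adjusted p = 0.17) and the fits without GFP-HI replicate 1 (0.12), GFP-HI replicate 2 (0.45) or GFP-NEG replicate 1 (0.34).

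The remaining 3 Frizzled genes did not pass. FZD4, the Norrin receptor of blood vessels, was at 13.3 and 6.79 CPM in GFP-HI and at 18.5 and 17.4 CPM in GFP-NEG (log2 -0.84, adjusted p = 0.29, edgeR). FZD3 and FZD10 had log2 fold changes of -1.61 and 1.08 (adjusted p = 0.29 and 0.54). FZD1, FZD2 and FZD7 together took 88.9% and 87.5% of all Frizzled counts in GFP-HI, against 34.6% and 14.6% in GFP-NEG. FZD4, FZD5 and FZD6 took 10.0% and 9.79% against 57.1% and 69.4%. These groupings were made after the values were seen, and the shares are of counts not corrected for length, so longer transcripts weigh more in them.

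**Figure D3:**
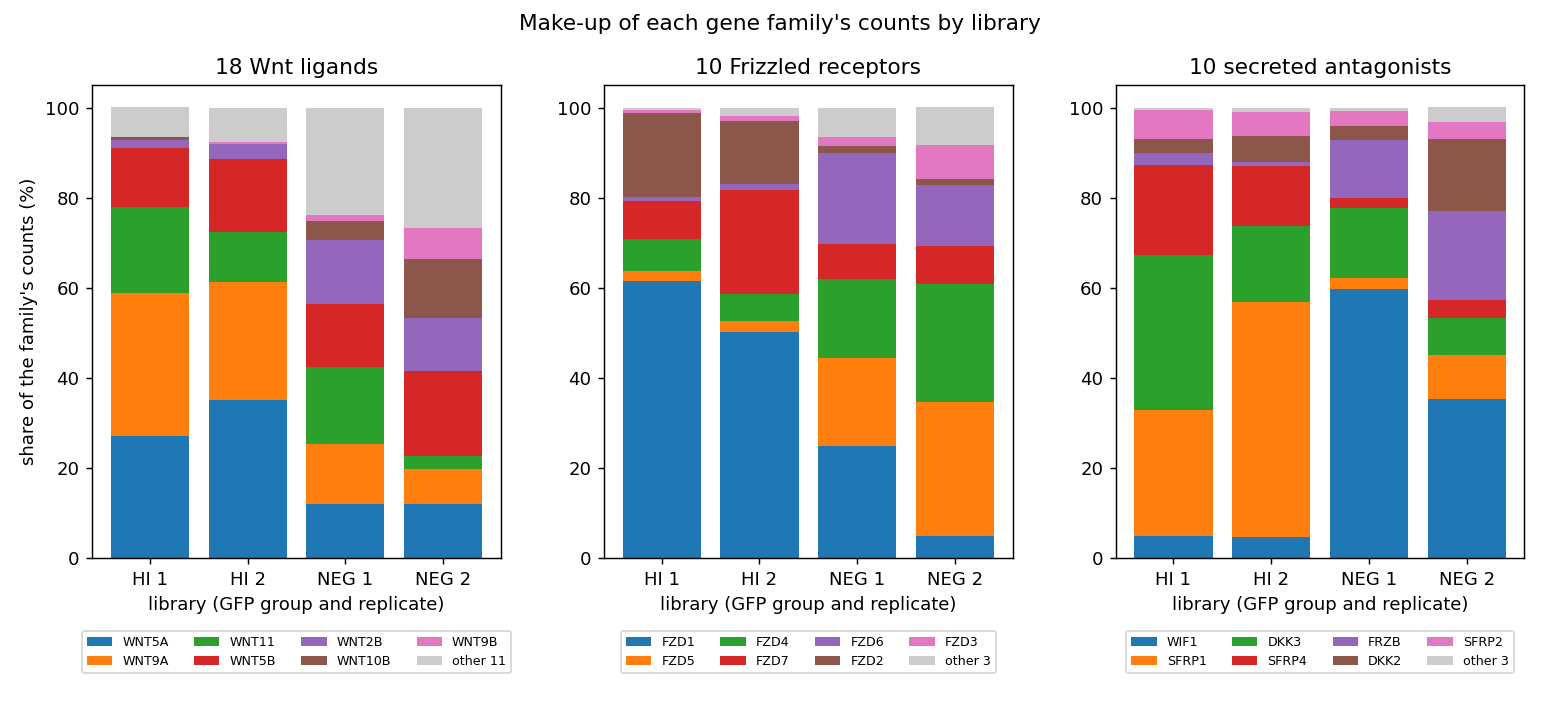
Share of each family's counts (percent) taken by its members in the 4 libraries (HI and NEG for GFP-HI and GFP-NEG, with the replicate number), for the 18 ligands, 10 Frizzled receptors and 10 antagonists, with the 7 largest members in colour and the others in grey. WIF1 and FRZB together take 7.42% and 5.57% of antagonist counts in GFP-HI against 72.7% and 54.9% in GFP-NEG, although WIF1 itself is at nearly the same level in both libraries of replicate 2. Shares across different genes are not corrected for length.

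The receptors of the branches outside beta-catenin, ROR1, ROR2 and RYK, were all called higher in GFP-HI. ROR2, a receptor tyrosine kinase-like protein that binds WNT5A, was at 39.8 and 32.5 CPM in GFP-HI and at 2.33 and 1.86 CPM in GFP-NEG, where it had 15 and 17 counts. The replicates of both groups were close, and the groups lay far apart. The fold change was 17.3 (log2 4.11, standard error 0.66, adjusted p = 3.7e-08, edgeR). ROR2 differed by 3.83 within replicate 1 and 3.80 within replicate 2, and was called under all 11 alternatives.

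ROR1, its relative, was at 44.0 and 36.4 CPM in GFP-HI and at 11.8 and 5.15 CPM in GFP-NEG (log2 2.25, standard error 0.57, adjusted p = 4.2e-04, edgeR). RYK, an atypical Wnt receptor that also guides axons, was at 31.9 and 32.5 CPM against 9.94 and 2.52 CPM (log2 2.38, standard error 0.60, adjusted p = 3.9e-04). For both, GFP-NEG replicate 1 was the higher GFP-NEG library. Without GFP-NEG replicate 2 the calls were lost (ROR1 1.73, adjusted p = 0.17, and RYK 1.66, adjusted p = 0.20).

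LRP6 and LRP5, the co-receptors of the beta-catenin branch, were above GFP-NEG in both GFP-HI libraries and did not pass the threshold. LRP6 was at 169.5 and 104 CPM in GFP-HI and at 92.1 and 29.5 CPM in GFP-NEG (log2 1.17, standard error 0.56, adjusted p = 0.088, edgeR). It was called without GFP-NEG replicate 1 (2.26, adjusted p = 0.028). LRP5 was at 16.1 and 10.5 CPM against 5.28 and 5.37 CPM (log2 1.32, adjusted p = 0.14). KREMEN1, which removes LRP6 from the surface together with a Dickkopf protein, was at 16.0 and 13.3 CPM against 6.06 and 4.06 CPM. Its log2 fold change of 1.54 was not past the threshold (adjusted p = 0.070) but passed with the replicate block (adjusted p = 0.034). KREMEN2 had 5 and 2 counts in GFP-NEG and 0 in GFP-HI, too few to test.

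Of 9 tested secreted antagonists, SFRP1, SFRP4, SFRP2 and DKK3 were called higher, and WIF1 and FRZB lower (4 and 2, beside 8.35% and 27.6% of all tested genes). SFRP1, a Frizzled-related protein that binds Wnt ligands, was at 177 and 370 CPM in GFP-HI and at 17.4 and 9.21 CPM in GFP-NEG. The fold change was 20.6 (log2 4.37, standard error 0.67, adjusted p = 1.1e-08, edgeR). SFRP4, of the same family, was at 126 and 95.5 CPM against 14.8 and 3.95 CPM (fold change 11.9, log2 3.58, standard error 0.58, adjusted p = 5.3e-08). Both groups were far apart for these genes, and each was called under all 11 alternatives, with log2 fold changes of at least 3.80 for SFRP1 and 2.87 for SFRP4.

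SFRP2, which is made by many fibroblasts, was at 40.0 and 38.3 CPM in GFP-HI and at 22.8 and 3.62 CPM in GFP-NEG. DKK3, a divergent Dickkopf protein, was at 216 and 118 CPM against 103 and 7.78 CPM. In both genes GFP-NEG replicate 1 lay much nearer to GFP-HI than GFP-NEG replicate 2 did. The difference was 0.80 within replicate 1 and 3.24 within replicate 2 for SFRP2, and 1.06 and 3.84 for DKK3. Their fitted log2 fold changes were 1.58 (standard error 0.55, adjusted p = 0.014, edgeR) and 1.59 (standard error 0.57, adjusted p = 0.019).

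Each of these calls was lost under 6 of 11 alternatives. SFRP2 was at 0.74 (adjusted p = 0.68) without GFP-NEG replicate 2 and at 3.48 without GFP-NEG replicate 1, and its call was also lost without GFP-HI replicate 1 or 2 (adjusted p = 0.12 for each) and under DESeq2 (0.096). DKK3 was at 0.65 (adjusted p = 0.76) without GFP-NEG replicate 2 and at 4.47 without GFP-NEG replicate 1, and lost its call without GFP-HI replicate 1 (0.32) or 2 (0.12) and under DESeq2 (0.13). The size of both differences was set by which GFP-NEG library was used.

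FRZB, also known as SFRP3 and a product of cartilage and mesenchyme, was at 16.3 and 6.35 CPM in GFP-HI and at 87.4 and 18.5 CPM in GFP-NEG. It thus went the other way from SFRP1, SFRP2 and SFRP4. FRZB fell by 2.22 on the log2 scale (standard error 0.54, adjusted p = 2.8e-04, edgeR), and the call was lost without GFP-NEG replicate 1 (-0.66, adjusted p = 0.53) and without GFP-HI replicate 2 (-1.66, adjusted p = 0.14). Within replicates 1 and 2 the difference was -2.39 and -1.47.

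WIF1, which binds Wnt ligands directly, was at 30.4 and 33.1 CPM in GFP-HI and at 400 and 33.4 CPM in GFP-NEG. The 2 libraries of replicate 2 and GFP-HI replicate 1 were at nearly the same level, and GFP-NEG replicate 1 stood alone. The log2 fold change of -2.77 (adjusted p = 8.2e-05, edgeR) therefore rested on that library, and was -0.02 without it (adjusted p = 0.98). The call was also lost without GFP-HI replicate 1 (adjusted p = 0.077) or 2 (0.078). With the replicate block the value was -1.88 (adjusted p = 0.040).

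DKK1 and DKK2, which block LRP5 and LRP6, did not pass. DKK2 was at 20.0 and 40.2 CPM in GFP-HI and at 20.3 and 15.1 CPM in GFP-NEG, so the groups overlapped (log2 0.76, adjusted p = 0.29, edgeR). DKK1 was at 2.99 and 5.55 CPM against 2.17 and 2.41 CPM (log2 0.89, adjusted p = 0.54). SFRP5 was low throughout, with at most 14 counts (log2 -2.17, adjusted p = 0.16), and reached the filter through GFP-NEG only. DKK4 had 0 counts in all 4 libraries. All 10 antagonists together summed to 630 and 707 CPM in GFP-HI and to 671 and 94.7 CPM in GFP-NEG, a sum that overlapped between the groups although its members differed. WIF1 took 59.7% and 35.3% of antagonist counts in GFP-NEG replicates 1 and 2, and 4.83% and 4.67% in GFP-HI. In replicate 2 its level was nearly the same in both groups, and its share differed with the sum of the other antagonists.

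**Figure D4:**
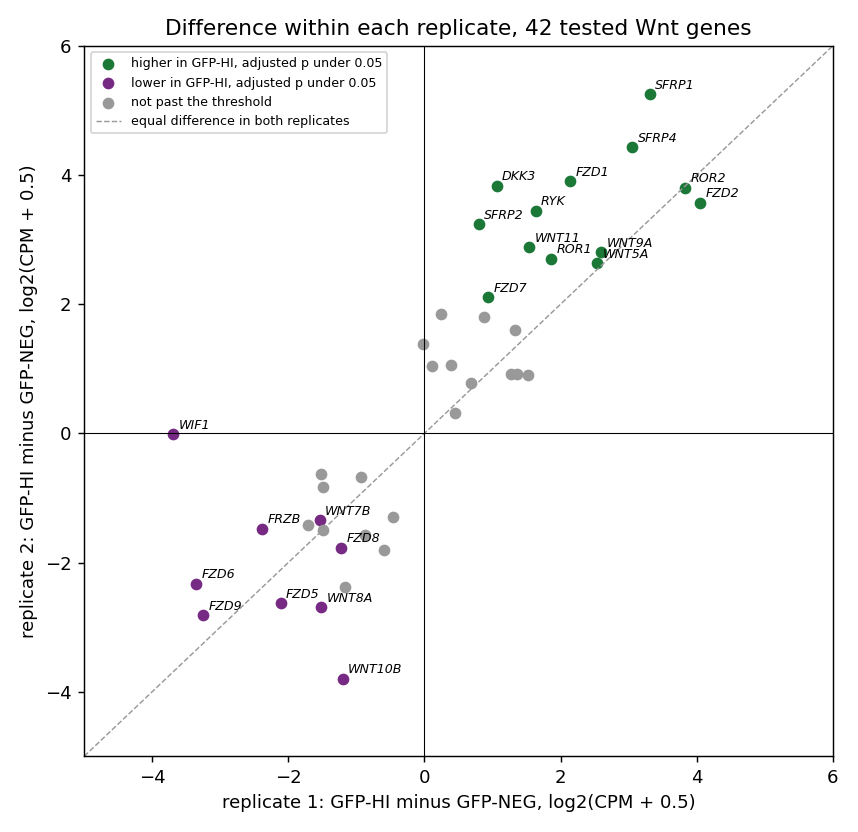
Difference between GFP-HI and GFP-NEG within replicate 1 (horizontal) and within replicate 2 (vertical), on the log2(CPM + 0.5) scale, for the 42 tested Wnt genes, with the line of equal differences dashed. ROR2, FZD2, WNT5A and WNT9A lie near the line, SFRP2 and DKK3 lie above it, and WIF1 is at -3.70 in replicate 1 and -0.02 in replicate 2.

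All 13 genes called higher were at a higher level in GFP-NEG replicate 1 than in GFP-NEG replicate 2, with a median ratio of 2.18 between these libraries. The same held for 89.1% of all genes called higher (median ratio 1.98) and for 44.8% of all tested genes. It also held for 6 of the 9 Wnt genes called lower (66.7%), where it held for 17.4% of all genes called lower. The fibroblast markers, all 14 of them higher in GFP-NEG replicate 1, had a median ratio of 3.48. Whether fibroblasts in the GFP-NEG sort contribute to these levels was not tested.

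Levels in GFP-NEG were set beside those of odorant receptor genes, whose main site of use is the olfactory epithelium. These were taken by symbol after the values were known. In the GFP-NEG libraries 57 and 91 of them had a count, and in the deeper GFP-HI libraries 5 and 2. Their median level was 0.155 and 0.548 CPM in the GFP-NEG libraries and 0 CPM in both GFP-HI libraries. Only 9 odorant receptor genes were tested, and all 9 were called lower in GFP-HI (0 higher), beside 27.6% of all tested genes. These 9 were among the higher genes of the set, not at its median. With so few of the set counted in GFP-HI, its genes could reach the filter almost only through GFP-NEG. Their direction was thus largely fixed by the filter, and nothing is drawn from it. The 95th percentile of the odorant receptor genes was 4.89 CPM in GFP-NEG replicate 2 and lower in GFP-NEG replicate 1. WNT7B, WNT8A and FZD8 were under that percentile in both GFP-NEG libraries, and FZD9 was above it in replicate 1 only. WNT10B, FZD5, FZD6, FRZB and WIF1 were above it in both. The highest odorant receptor gene was at 15.5 and 36.2 CPM in GFP-NEG replicates 1 and 2. FZD5, FZD6, FRZB and WIF1 were above that level in replicate 1 only, and WNT10B in neither. No Wnt gene, called higher or lower, was above it in both. The percentile is meant in what follows. Of the 13 genes called higher, 6 were above it in both GFP-NEG libraries and 7 in only 1 of them (FZD1, FZD2, ROR2, RYK, SFRP2, SFRP4 and WNT11), and the folds of those 7 rest on these GFP-NEG levels. Where these low counts in GFP-NEG come from was not tested.

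**Figure D5:**
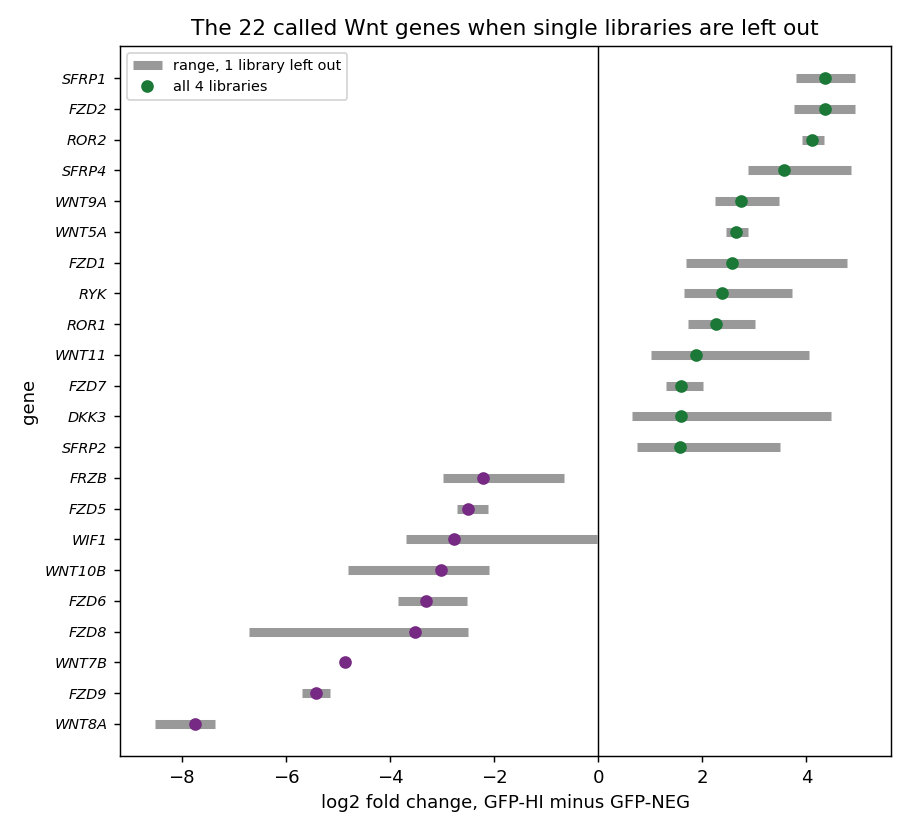
Log2 fold change of the 22 called Wnt genes with all 4 libraries (points, green for higher and violet for lower in GFP-HI) and its range over the fits that left out 1 library (grey bars). ROR2 ranges from 3.91 to 4.33 and WNT5A from 2.45 to 2.87, while DKK3 ranges from 0.65 to 4.47 and WIF1 from -3.69 to -0.02. WNT7B has no bar because no such fit tested it.

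Of the 22 calls, 7 were made under all 11 alternatives: SFRP1, SFRP4, FZD2, ROR2, WNT5A and WNT9A higher, and FZD9 lower. FZD9 could be tested only through its GFP-NEG counts, so its place among them says nothing of stability. In the authors' deposited table, 35 of the 47 genes appear. There, 10 have an adjusted p-value under 0.05 with a higher level in GFP-HI and 5 with a lower one. Over all genes in the authors' deposited table, 8.2% were called higher and 11.2% lower. All of these 10 and 5 genes were also called here, in the same direction. The authors' table rests on the same libraries, and the DESeq2 alternative used here gave its 35 genes the same values. The authors' calls and the DESeq2 calls are therefore not separate evidence. WNT11, DKK3 and SFRP2 were called here and not in the authors' deposited table, and the 4 genes FZD8, FZD9, WNT7B and WNT8A, called lower here, are not listed in it.

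The rest of the pathway was described by lists of its other genes, whose counts stand beside 8.35% higher and 27.6% lower among all tested genes. Apart from LGR5, the calls of these list genes were not followed through the alternative settings. Of 16 tested genes of the destruction complex and signal transduction, 1 was called higher, DVL3 (log2 1.32, adjusted p = 0.036, edgeR), and 0 lower. Of 10 tested nuclear effectors, 4 were higher and 1 lower. PYGO1, a co-activator of beta-catenin, was at 22.3 and 23.8 CPM against 6.06 and 3.73 CPM (log2 2.24, adjusted p = 0.0020). BCL9, which links Pygopus proteins to beta-catenin, and TCF7L2, its DNA-binding partner, were also higher (log2 1.44 and 1.40, adjusted p = 0.021 and 0.036). Within replicates 1 and 2 the difference was 0.996 and 1.97 for BCL9 and 0.77 and 2.36 for TCF7L2. TLE1 and TLE4, related co-repressors, went in opposite directions (log2 1.73 and -1.31, adjusted p = 0.0047 and 0.037). Of 8 tested target and feedback genes, 5 were higher and 0 lower, among them LGR5 itself, on whose reporter the cells were sorted. The call of LGR5 was set by the sort, so it adds nothing to this count. AXIN2, a feedback inhibitor and widely used readout of the beta-catenin branch, was at 96.2 and 71.0 CPM in GFP-HI and at 21.7 and 2.85 CPM in GFP-NEG (log2 2.78, adjusted p = 1.3e-05, edgeR). TNFRSF19 was at 178 and 180 CPM against 10.7 and 8.003 CPM (log2 4.26, adjusted p = 2.3e-09). The feedback inhibitors NKD1 and APCDD1 had log2 fold changes of 2.16 and 2.07 (adjusted p = 3.7e-04 and 0.024). Within replicates 1 and 2 the difference was 1.36 and 3.88 for NKD1 and 1.70 and 2.07 for APCDD1.

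Of 15 tested genes of other extracellular modulators, 5 were called higher and 3 lower, beside 8.35% and 27.6% of all tested genes. SOSTDC1, a secreted inhibitor of Wnt and BMP signalling, was at 162 and 497 CPM in GFP-HI and at 18.6 and 3.40 CPM in GFP-NEG (log2 4.91, standard error 0.71, adjusted p = 1.1e-09, edgeR). TPBG, a membrane protein that dampens signalling through LRP6, was at 45.6 and 46.9 CPM against 4.04 and 1.97 CPM (log2 3.96, adjusted p = 2.0e-08). NDP, which encodes the FZD4 ligand Norrin, was at 12.7 and 9.12 CPM against 2.48 and 2.41 CPM (log2 2.16, adjusted p = 0.026). The glypicans GPC3 and GPC4, cell-surface proteoglycans that bind Wnt proteins, had log2 fold changes of 2.65 and 1.87 (adjusted p = 0.017 and 0.013). DRAXIN, a secreted antagonist, had 2 and 5 counts against 13 and 87 (adjusted p = 5.9e-04), and reached the filter through GFP-NEG only. CTHRC1, a secreted protein that binds Wnt, Frizzled and ROR2, was at 1.495 and 0.694 CPM against 43.0 and 3.95 CPM. It fell by 4.40 on the log2 scale (adjusted p = 1.2e-07), and the difference was -4.45 within replicate 1 and -1.90 within replicate 2. RSPO2, a ligand of LGR5, was at 9.79 and 5.80 CPM against 36.0 and 6.80 CPM (log2 -1.45, adjusted p = 0.048), and its GFP-NEG libraries lay on either side of the higher GFP-HI library.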

How the data were processed

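RNA sequencing of sorted lung cells gave 4 libraries, 2 GFP-HI and 2 GFP-NEG. The authors deposited raw counts per gene for every library, and a comparison table whose log2 fold change, p-value and adjusted p-value columns are theirs. Per the submitters' processing notes, featureCounts, Subread 1.5.2 and DESeq2 1.37.6 were used. The aligner and strand setting are not given in the sources used here, so reads of overlapping genes cannot be told apart. For the annotation, the sources give only a version number within the name of the authors' comparison table. In RefSeq's Sscrofa11.1 annotation, 7 of the genes, among them FZD1, FZD9 and WNT10B, overlap another protein-coding gene (WNT1 and WNT10B each other). The 4 normalized columns were not used, because the headings of 2 name another library.

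Counts were fitted with edgeR 4.0.16 (R 4.3.3, glmQLFit and glmQLFTest, TMM scaling, filterByExpr with a minimum count of 10, group as the only term), with Benjamini-Hochberg adjustment of p-values over all 19682 tested genes. Every adjusted p in the text is from this test unless an alternative setting or the authors' table is named beside it. The alternatives refit edgeR, or DESeq2 1.42.0 where named, and adjust over their own tested genes. Standard errors were taken as log2 fold change over root F. In the edgeR fit with group alone, the genewise spread was moderated fully to the common trend (common dispersion 0.239). A gene's own replicate scatter therefore carries no weight in its p-value or standard error there. Differences within a replicate use log2(CPM + 0.5). Intervals cover counting error only, and the floor of 3 counts covers that of the GFP-HI side only.

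Replicate numbers come from the titles, and the headings of the authors' table name pig 1 and pig 2, so a number was taken to mark an animal. Deviations of same-numbered libraries from their group means correlated at 0.179 across genes. The labels do not say more on how replicates were made. The edgeR p-values with group alone rest on a spread between these libraries pooled over genes, not on that of the single gene. The 11 alternatives were scaling by library totals or RLE, no filter or a stricter one (1 CPM in 2 libraries), DESeq2, a replicate block, thinning of GFP-HI to the GFP-NEG depth, and leaving out each library. The genes and lists were chosen with earlier results of these data known. Named among the 47 genes were all those past the threshold, those with a log2 fold change of at least 1 in size, those whose call changed, and the one with most counts per role. PORCN, WNT2, WNT16, FZD4, DKK1 and DKK2 were added after their values were seen, to account for every gene. Examples from the other lists were named only among genes past the threshold. The tables used here hold no sequences, and none are shown.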

Additional observations from a re-analysis of the deposited data

How the results depend on the processing

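No fit on all 4 libraries changed the direction of any of the 42 tested Wnt genes. PORCN ran from -0.0299 (without GFP-HI replicate 1) to 0.954 (without GFP-NEG replicate 1) when 1 library was left out, against 0.42. Leaving out 1 library gave 6 to 13 Wnt genes called higher and 2 to 5 called lower, against 13 and 9. The lowest counts came without GFP-NEG replicate 2 (6 higher) and without GFP-HI replicate 2 (2 lower). Over all genes these fits gave 216 to 1635 called higher and 1575 to 4999 called lower, against 1643 and 5433. Such a fit sets 2 libraries against 1 and assumes that the lone library varies like the others. With the replicate block 14 Wnt genes were called higher and 7 lower: KREMEN1 was gained and FZD8 and WNT7B were lost, and no other Wnt gene changed its call. Scaling by library totals alone called 888 of all genes higher and moved the median of all genes to -0.68, and 11 Wnt genes were then higher and 9 lower. Thinning GFP-HI called 3591 of all genes lower, and 10 Wnt genes higher and 7 lower. DESeq2 called 10 Wnt genes higher and 7 lower. Depth limits the low genes: 3 counts are worth 0.466 and 0.329 CPM in the GFP-NEG libraries.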

Other observations

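Genes of planar cell polarity, the branch of Wnt signalling that orients cells within a tissue, were described as a further list. Calls of this list were not followed through the alternative settings either. Of 13 tested, 4 were called higher and 2 lower in GFP-HI, beside 8.35% and 27.6% of all tested genes. PTK7, a receptor-like co-factor of this branch, was at 128 and 77.2 CPM in GFP-HI and at 26.1 and 7.02 CPM in GFP-NEG (log2 2.64, adjusted p = 3.9e-05, edgeR). PRICKLE2 and PRICKLE1, which encode cytoplasmic polarity proteins, rose by 2.14 and 1.74 on the log2 scale (adjusted p = 0.0025 and 0.0043), and DAAM1, which links Dishevelled to actin, by 1.75 (adjusted p = 0.012). For all 4 genes both GFP-HI libraries lay above both GFP-NEG libraries, and GFP-NEG replicate 1 above GFP-NEG replicate 2. CELSR2 and CELSR3, polarity cadherins, were lower, with 2 and 8 counts in GFP-HI against 34 and 66 in GFP-NEG for CELSR2, and 6 and 1 against 9 and 80 for CELSR3 (adjusted p = 9.2e-04 and 0.0012, edgeR). Both reached the filter through GFP-NEG only.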
